A study of Drosophila melanogaster with 40 samples.

Results

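LysB, LysC, LysD, LysE, LysP, LysS and LysX are the Lys genes of a single cluster on chromosome arm 3L. They code for secreted lysozymes of the c-type, except that LysC is a pseudogene in the newer Ensembl annotation. They were taken by name from the deposited count table and make up 7 of its 17490 genes. The RNA came from whole Drosophila melanogaster that expressed feline MYBPC3, which codes for cardiac myosin binding protein C, in the heart as a model of feline hypertrophic cardiomyopathy. The lines expressed wild type MYBPC3 (WT) or its variants A31P or R820W, and the control was attP2. On a w1118/y, w background with a Chr2 chromosome, each line had 1 UAS construct, placed at the attP2 site by PhiC31 integration, opposite the driver TinCΔ4-Gal4, and control animals had the empty attP2 site opposite that same driver. Larvae of the third instar, and 1 week old females and males that were nonexercised or had exercised for 1 h, gave 20 groups with 2 replicates, each a pool of 10 whole animals, and 40 libraries in all.

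Lysozymes cut the sugar backbone of peptidoglycan in the bacterial cell wall. In flies, which take up bacteria with fermenting food, most genes of this cluster are known to be active in the digestive tract, where their products digest bacteria, and not to be switched on by infection as the antimicrobial peptides of the fat body are. LysB, LysC, LysD and LysE are closely similar copies known from the midgut, LysS is known from the gastric caeca of larvae, LysP from the salivary gland of adults and LysX from the gut of late larvae and young pupae.

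Counts on genes summed to 18493813 to 26917796 per library, with a median of 21691891.5, and levels are given as CPM, the count divided by that sum and scaled to 1000000. A count of 3, taken as the floor of detection, corresponded to 0.111 to 0.162 CPM. Markers followed the labels: 6 glue genes of the larval salivary gland summed to 6266 to 8670 CPM in larvae and at most 4.598 CPM in adults, 9 testis genes to 1275 to 2399 CPM in males and at most 1.20 CPM in females, 11 accessory gland genes to 3052 to 4648 CPM in males and at most 2.19 CPM in females, and 14 ovary and eggshell genes to 2041 to 5065 CPM in females. In their tissue genes 3 libraries stood apart. A31P and R820W exercised males replicate 2 held 2310 and 202 CPM of the ovary and eggshell genes and 4197 and 353 CPM of the 3 yolk genes, against at most 16.8 and 110.6 CPM in the other 14 male libraries, and attP2 larvae replicate 2 held 13930 CPM of 27 protein-digesting enzymes of the gut, against 4434 to 8957 CPM in the other 7 larval libraries. A further library, attP2 nonexercised males replicate 1, held 1005 CPM of 14 antimicrobial peptide genes, against 47.3 to 93.3 CPM in the other 7 nonexercised male libraries, and 110.6 CPM of yolk genes, against 8.20 to 10.6 CPM. Leaving it out changed no call of a member in the comparisons that used it. Larvae and nonexercised adults shared one flow cell (lane 7 for replicate 1, lane 8 for replicate 2), and exercised females and males had lanes 1 and 3 of another, so that exercise and flow cell cannot be told apart. By the paper's methods, exercised flies spent the hour in empty vials and were scored for climbing again before freezing. The exercise comparisons include these steps. In pools of whole animals, fewer cells of a type and less RNA per cell cannot be told apart either.

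In release 6 coordinates, the cluster spans 33.5 kb of 3L, from LysX at 1194739 to 1195302 on the minus strand to LysS at 1227747 to 1228238 on the plus strand. Between them lie LysB (1207371 to 1207981, plus), LysC (1210485 to 1210971, plus), LysD (1210717 to 1211196, minus), LysE (1212827 to 1213406, plus) and LysP (1218082 to 1218696, minus), with 4 other genes, Aplip1, mwh, CG32335 and CG9119. Each Lys gene spans 480 to 615 bp in the table. The rows of LysC and LysD overlap by 255 bp on opposite strands, which is 52.4% of LysC. In the newer Ensembl annotation, LysC is a pseudogene of 242 bp that overlaps LysD by 10 bp. The libraries were directional, but it is not given in the sources used here whether strand was used in counting, or how a read that fits several copies was assigned, so the values of LysC, and the division of reads among LysB, LysC, LysD and LysE, are uncertain. Their summed count was therefore tested beside them.

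The cluster was expressed at every stage, but its members had different patterns. Per kb of gene, LysS (median of the 8 libraries 278 CPM per kb), LysD (263), LysB (159) and LysX (143) led in larvae, with ranges that overlapped, followed by LysC (43.0), LysE (8.69) and LysP (0.374). In all 4 groups of adults LysD led, at medians of 256 to 542 CPM per kb, followed by LysB (63.8 to 133), LysC (34.5 to 51.1) and LysE (18.1 to 26.7), and the ranges of neighbours in this order did not overlap in nonexercised females or exercised males. In exercised females LysB (74.3 to 192 CPM per kb), LysC (28.5 to 82.0) and LysE (12.4 to 37.3) overlapped with their neighbours, and in nonexercised males LysC (19.2 to 49.5 CPM per kb) and LysE (13.8 to 20.7) did. LysP and LysX had lower medians, and LysS was near the floor. In nonexercised females LysP (12.8 to 18.6 CPM per kb) and LysX (3.56 to 19.2) overlapped LysE (12.4 to 23.6), and in exercised females LysX (2.04 to 19.7) did. LysD thus held 22.3% to 37.6% of the 7 genes' counts in larval libraries and 58.2% to 67.9% in adult libraries.

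**Figure D1:**
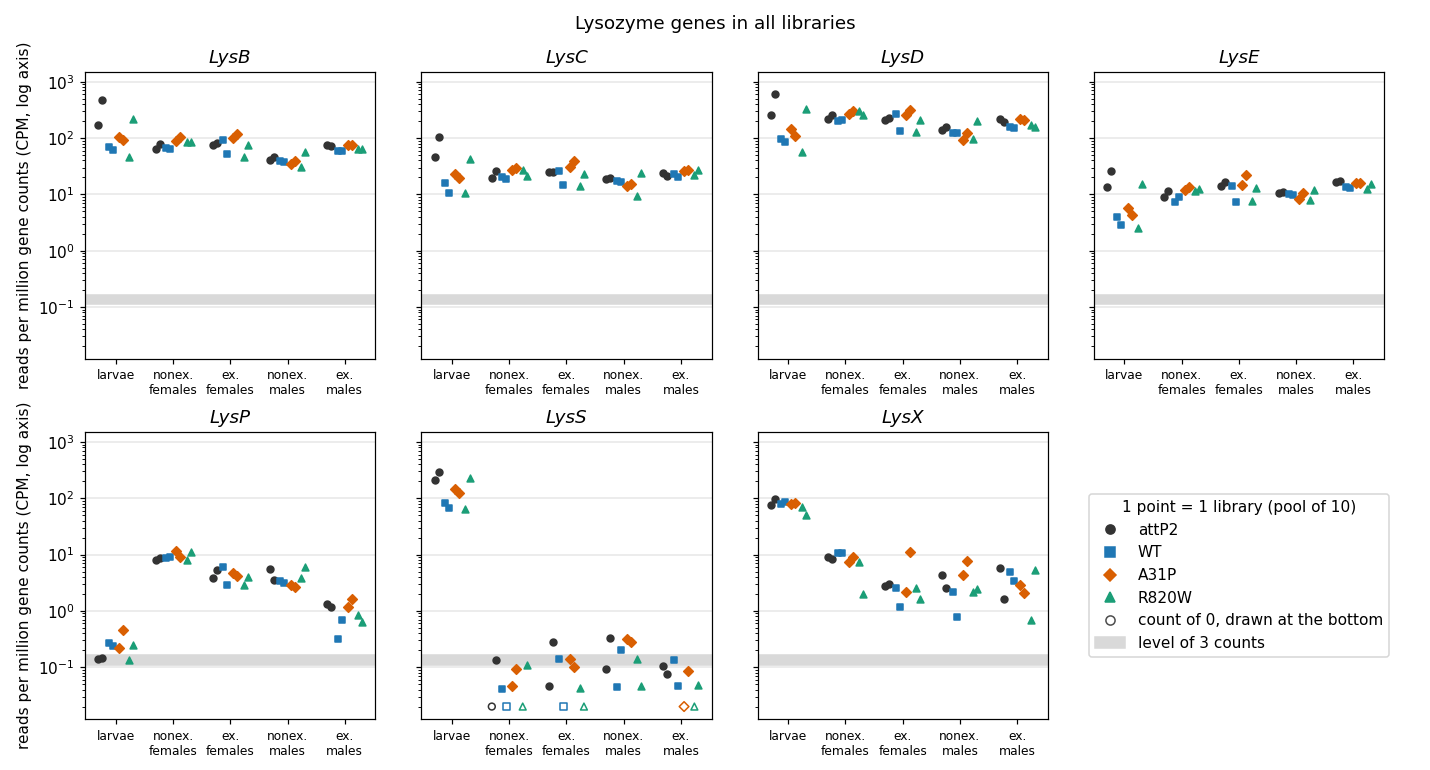
Level of each lysozyme gene in the 40 libraries, as CPM on a log axis, by stage and genotype. Each point is 1 library, open points at the bottom are counts of 0, and the grey band is the level of 3 counts. LysS stands at 65.5 to 297 CPM in larvae and at most 0.324 CPM in adults, LysP at most 0.452 CPM in larvae and up to 11.4 CPM in nonexercised females.

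LysS was a larval gene in these libraries. Its larval libraries measured 65.5 CPM at the lowest, 137 CPM at the median and 297 CPM at the highest, and no adult library exceeded 0.324 CPM or a count of 7. The 8 libraries of nonexercised females held 10 reads in all, so that the pooled level was 2792-fold higher in larvae (95% exact Poisson interval 1518 to 5822, for counting error only), and the 30 reads of nonexercised males gave 853-fold (598 to 1265). Where these few adult reads came from was not tested: the larval glue genes were likewise present at 2.30 to 4.598 CPM in nonexercised adults, which shared the flow cell of the larvae, and at most 0.365 CPM in exercised adults. LysS itself had 16 reads in all in exercised females, more than in nonexercised females, and 11 in exercised males, fewer than in nonexercised males. LysX, the gene of late larvae, stood at 49.5 CPM at the lowest, 80.7 CPM at the median and 97.3 CPM at the highest in larvae. Its level in adults was between 0.692 and 11.1 CPM, and the larval and adult ranges did not overlap.

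LysP, the salivary lysozyme of adults, had the opposite pattern. It was counted 3 to 10 times in each larval library, 41 reads in all, or at most 0.452 CPM. Nonexercised females measured 7.88 CPM at the lowest, 8.76 CPM at the median and 11.4 CPM at the highest, and nonexercised males 2.65, 3.45 and 6.11 CPM. From pooled counts, LysP was 39.9-fold (29.4 to 55.7) higher in nonexercised females and 16.8-fold (12.4 to 23.5) higher in nonexercised males than in larvae.

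Averaged over the 4 genotypes, 5 of the 7 genes differed significantly between larvae and nonexercised females, 4 higher and 1 lower in larvae, called in edgeR's quasi-likelihood test where the adjusted p-value was below 0.05 and the Log2FC beyond 0.5 in size. Of all genes tested 74.0% were called in this comparison, 40.0% higher and 34.0% lower in larvae, so the members' share lies near the background. LysS and LysX (Log2FC 3.90 ± 0.18 SE) were among those higher, and LysP (-4.79 ± 0.21) was lower. LysB was also higher in larvae, with a Log2FC of 1.31 ± 0.31 and an adjusted p-value of 0.00156 (edgeR, Benjamini-Hochberg), although its larval libraries (46.7, 97.4 and 468 CPM at the lowest, median and highest) overlapped those of nonexercised females (62.8, 81.2 and 104 CPM). LysC had a Log2FC of 0.83 ± 0.28 (adjusted p-value 0.0159, edgeR, Benjamini-Hochberg), and without the attP2 genotype it was 0.33 (adjusted p-value 0.331, edgeR, Benjamini-Hochberg, 0.000241 to 0.331 over its alternatives). LysD and LysE did not differ significantly, each with a Log2FC of 0.09 (SE 0.32 and 0.33), nor did the summed count of LysB, LysC, LysD and LysE (Log2FC 0.50 ± 0.31, adjusted p-value 0.143, edgeR, Benjamini-Hochberg). The sum was called with DESeq2 (0.68) and without the R820W genotype (0.54).

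Against nonexercised males, 6 of the 7 genes were called, 5 higher and 1 lower in larvae, where 74.7% of all genes were called, 34.4% higher and 40.3% lower. LysX had a Log2FC of 5.20 ± 0.19, LysB 2.16 ± 0.33, LysC 1.19 ± 0.31, LysD 0.92 ± 0.34 and LysP -3.62 ± 0.21. LysE alone did not differ significantly (0.05 ± 0.33). The calls of LysC and LysD depended on the control larvae. Without the attP2 genotype the Log2FC of LysC was 0.82 (adjusted p-value 0.0584) and that of LysD 0.61 (adjusted p-value 0.179, edgeR, Benjamini-Hochberg for both). Over their alternatives, by edgeR or DESeq2, the adjusted p-values were 0.000223 to 0.0584 for LysC and 0.00328 to 0.179 for LysD. Of the 3 libraries that stood apart, this comparison used only attP2 larvae replicate 2. Without that library LysD had a Log2FC of 0.75 and was not called.

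**Figure D2:**
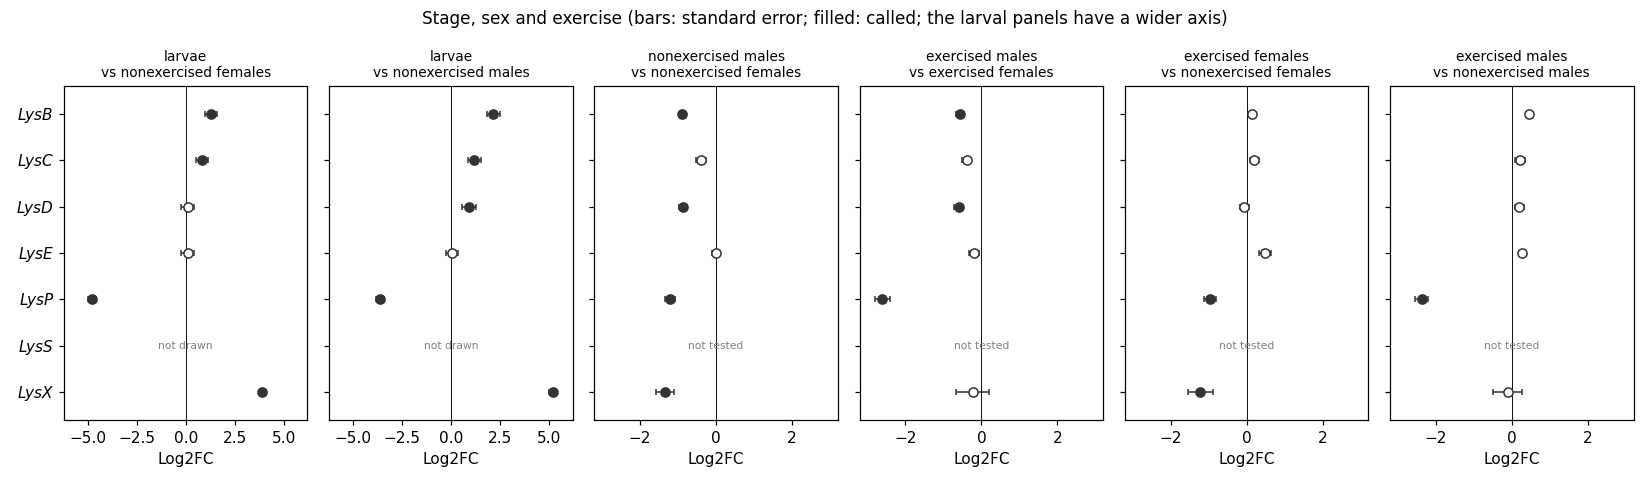
Log2FC of each lysozyme gene between stages, sexes and exercise groups, averaged over the 4 genotypes, with standard errors. Filled points were called, LysS is not drawn because its adult counts lie near the floor, and the axis of the larval panels is wider. LysP is filled in every panel, and falls below 0 in each.

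The 4 similar copies did not keep one proportion between stages. The count of LysB was 0.653 to 0.843 of that of LysD in larval libraries and 0.285 to 0.407 in adult libraries, with no overlap. The ratio of LysE to LysD differed between the sexes, and in females also between the exercise conditions, without overlap. Nonexercised females had 0.0351 to 0.0476 and nonexercised males 0.0602 to 0.0891, and exercised females had 0.0537 to 0.0719 and exercised males 0.0721 to 0.0974. Larvae, at 0.0347 to 0.0519, lay with nonexercised females. At either exercise condition, no male library overlapped the females in this ratio. LysC to LysD was 0.127 to 0.188 among the larvae, against 0.0794 to 0.101 among nonexercised females, and in the other adults it lay between 0.0984 and 0.173. These ratios are taken within a library and do not depend on its normalization, but they do depend on how reads were divided among the copies, and they are given as a description.

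**Figure D3:**
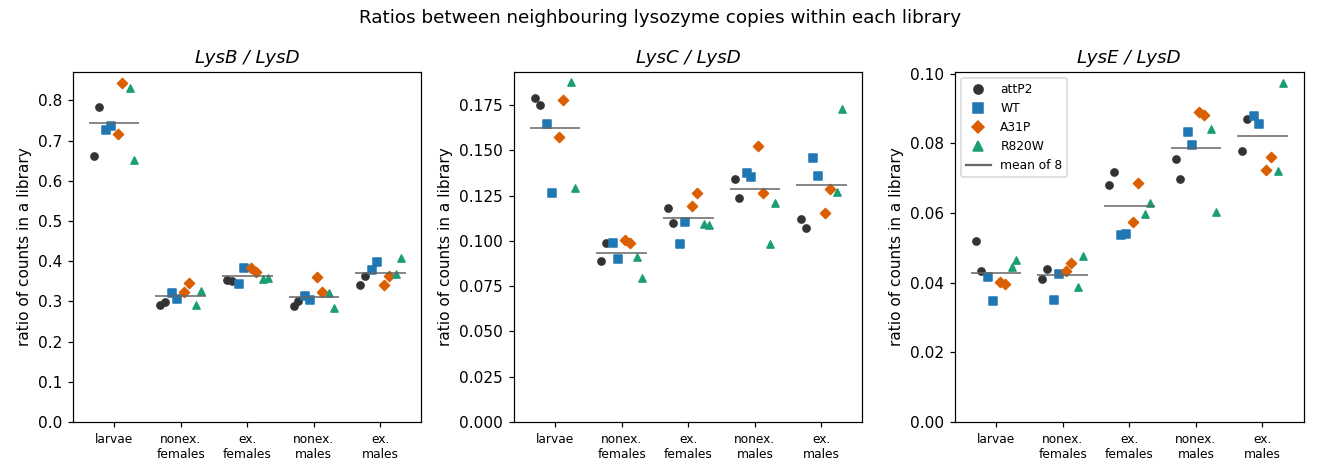
Count of LysB, LysC and LysE as a ratio to that of LysD in each library, by stage and genotype. Each point is 1 library and the line is the mean of 8. LysB to LysD is 0.653 or higher in every larval library and 0.407 or lower in every adult library, and LysE to LysD is higher in males than in females of the same exercise condition.

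In nonexercised flies, 4 of the 6 genes tested were lower in males and 0 higher, where 80.1% of all genes were called and 33.6% were lower in males. LysS did not pass the filter on low counts. LysB measured 62.8, 81.2 and 104 CPM at the lowest, median and highest in females and 30.5, 39.0 and 56.9 CPM in males, and LysD 204, 260.1 and 300.0 CPM in females and 94.1, 123 and 199.8 CPM in males. No male library reached the females for either gene, or for LysP. The share of all genes whose libraries separated in this way is not given, here or for any other comparison. The Log2FC of males against females was -0.89 ± 0.10 for LysB, -0.87 ± 0.11 for LysD, -1.21 ± 0.14 for LysP and -1.34 ± 0.23 for LysX, with adjusted p-values of 6.40e-07, 2.19e-06, 4.78e-07 and 4.34e-05 (edgeR, Benjamini-Hochberg). LysX ranged from 2.01 to 10.8 CPM in females and from 0.766 to 7.57 CPM in males, and overlapped. LysC had a Log2FC of -0.41 ± 0.14, under the threshold of size (-0.52 and called without the attP2 genotype), and LysE of 0.00 ± 0.11 (adjusted p-value 0.995, edgeR, Benjamini-Hochberg). The summed count of LysB, LysC, LysD and LysE was called lower in males, with a Log2FC of -0.93 to -0.65 over its alternatives. The median Log2FC of all genes was 0.33 here with TMM factors and 0.48 with RLE factors, and LysE, at 0.16 with RLE factors, was the one member above 0 under that scaling. Relative to the median gene all 6 lay lower in males under both.

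In exercised flies, LysB, LysD and LysP were called lower in males, 3 of the 6 tested, where 86.7% of all genes were called and 34.8% were lower in males. The Log2FC was -0.57 ± 0.11 for LysB and -0.60 ± 0.13 for LysD, and both lay under the threshold of size with RLE factors, at -0.42 and -0.45, where the median of all genes moved from 0.69 to 0.84. Without the A31P genotype LysB was not called either (-0.48). The libraries overlapped: LysB measured 45.4, 77.7 and 117.5 CPM in females and 59.2, 67.7 and 76.1 CPM in males. LysP did not overlap, at 2.89 to 5.99 CPM in females and 0.311 to 1.63 CPM in males, and had a Log2FC of -2.61 ± 0.20 (adjusted p-value 2.93e-08, edgeR, Benjamini-Hochberg). LysC (-0.39 ± 0.12), LysE (-0.20 ± 0.14) and LysX (-0.22 ± 0.43) were not called. The summed count of LysB, LysC, LysD and LysE was called lower in males, but the call depended on the setting. It lay under the threshold of size with DESeq2 and with RLE factors (-0.41 each), and without the WT (-0.497) or A31P (-0.491) genotype. Without the libraries that stood apart its Log2FC was -0.479. Exercised females and males were sequenced in different lanes, so sex and lane cannot be told apart here.

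The salivary lysozyme LysP was lower after exercise in both sexes. In females its libraries measured 7.88, 8.76 and 11.4 CPM at the lowest, median and highest without exercise and 2.89, 4.04 and 5.99 CPM with it, and in males 2.65, 3.45 and 6.11 CPM and 0.311, 1.01 and 1.63 CPM. The exercise groups did not overlap in either sex, and the lowest value rested on 7 reads. How many of all genes separated likewise is not given. Of the 6 genes tested, LysP and LysX were called in females, where 41.7% of all genes were called and 25.5% were lower, and LysP alone in males, where 11.3% were called and 5.54% were lower.

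The Log2FC of LysP with exercise was -0.96 ± 0.16 in females (adjusted p-value 0.000207) and -2.37 ± 0.17 in males (adjusted p-value 5.70e-07, edgeR, Benjamini-Hochberg for both). The difference between the sexes was itself significant: the interaction of sex and exercise was -1.44 ± 0.24 for LysP (adjusted p-value 8.62e-05, edgeR, Benjamini-Hochberg), 1 of 6 genes called where 28.4% of all genes were. Without the male libraries that held ovary and yolk genes it was -1.47. Exercised females and males each had a lane of their own, so lane and this interaction cannot be told apart.

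LysX fell by 1.21 on the log2 scale with exercise in females (SE 0.32, adjusted p-value 0.00486, edgeR, Benjamini-Hochberg), from 2.01 to 10.8 CPM to 1.15 to 11.1 CPM. The ranges overlapped: A31P replicate 2 was the highest of the exercised females at 11.1 CPM, with the other 7 at or below 3.06 CPM, and R820W replicate 2 was the lowest of the nonexercised females at 2.01 CPM, with the other 7 at or above 7.40 CPM. The call did not hold without the WT genotype (-0.84, adjusted p-value 0.0652, edgeR, Benjamini-Hochberg, 0.000154 to 0.0652 over its alternatives). In males LysX had a Log2FC of -0.11 ± 0.37. None of the gut copies was called: with exercise LysB had a Log2FC of 0.14 ± 0.12 in females and 0.45 ± 0.09 in males, where no nonexercised library (30.5 to 56.9 CPM) reached the exercised ones (59.2 to 76.1 CPM). LysE had 0.49 ± 0.16 and 0.28 ± 0.08, with adjusted p-values of 0.0136 and 0.0123 (edgeR, Benjamini-Hochberg). These values of LysB in males and of LysE lie under the threshold of size and were not called, and LysC, LysD and the summed count of the 4 copies did not differ significantly in either sex.

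The transgenic lines were compared with attP2, and the mutant lines with WT, within each stage. Over the 15 comparisons with attP2, 0 of 90 values of the members were called by edgeR's quasi-likelihood test, with 17 at an unadjusted p-value under 0.05, and over the 10 comparisons with WT 0 of 60, with 15. Of all genes' values in these comparisons, 11.9% and 8.74% lay at an unadjusted p-value under 0.05, with 2.60% to 21.8% and 1.32% to 33.1% in single comparisons. DESeq2 called 1 and 2 values respectively, and edgeR's likelihood ratio test 1 and 2. Each comparison tested 6 genes, as LysP in larvae and LysS in adults did not pass the filter on low counts. The 3 comparisons with attP2 in a stage share its 2 control libraries, so their directions are not independent of each other.

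The larvae showed the largest differences. In attP2, WT, A31P and R820W the replicates measured 172 and 468, 69.7 and 61.7, 103.2 and 91.5, and 46.7 and 215 CPM for LysB. For LysD they measured 260.2 and 598, 96.2 and 83.6, 144 and 109, and 56.1 and 329 CPM in that order. Both attP2 libraries lay above those of WT and A31P, but replicates of attP2 differed by 2.72-fold and those of R820W by 4.61-fold for LysB, and R820W thus spanned from below WT to above 1 of the attP2 libraries. LysE, at much lower levels, measured 13.5 and 25.9 (attP2), 4.0 and 2.90 (WT), 5.79 and 4.29 (A31P) and 2.49 and 15.3 CPM (R820W). LysC (46.5 and 105, 15.8 and 10.6, 22.6 and 19.3, 10.5 and 42.6 CPM) had the same order of group means. LysS, the gene of the larval caeca, followed at 213 and 297, 83.6 and 68.1, 149.2 and 124.7, and 65.5 and 225 CPM.

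**Figure D4:**
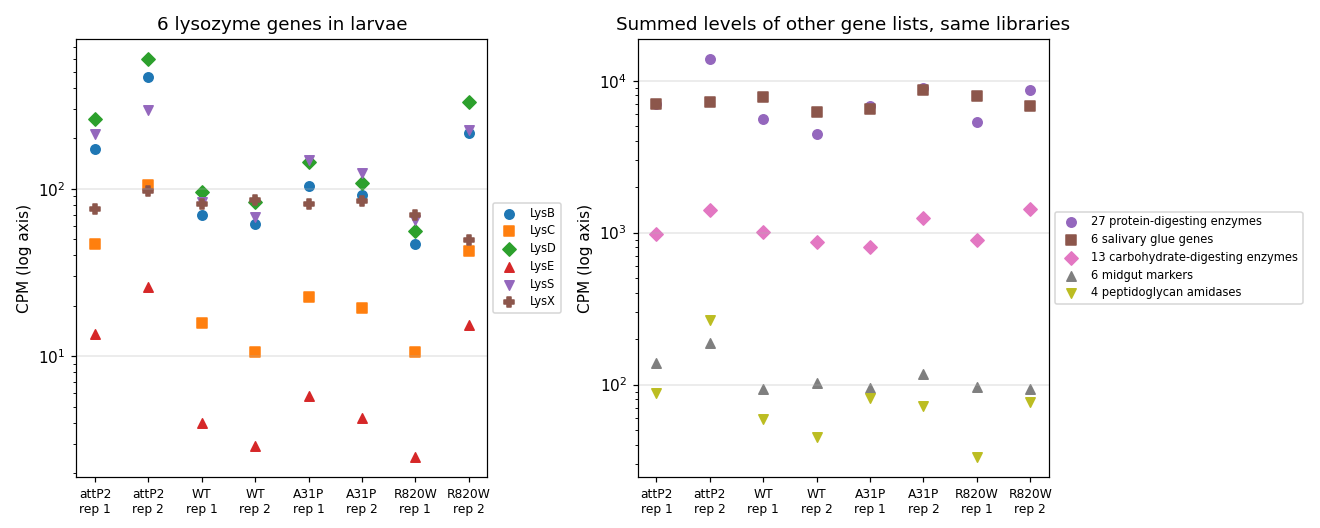
Left, 6 lysozyme genes in the 8 larval libraries, and right, summed levels of 5 other gene lists in the same libraries, as CPM on log axes with 1 point per library. LysB, LysC, LysD, LysE and LysS are highest in attP2 replicate 2 and lowest in R820W replicate 1, while LysX stays between 49.5 and 97.3 CPM and the glue genes between 6266 and 8670 CPM.

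Against attP2, the Log2FC of the 4 copies in larvae lay between -2.61 and -2.35 in WT, between -1.98 and -1.75 in A31P and between -1.29 and -0.90 in R820W, with standard errors of 0.75 to 0.90. LysS had a Log2FC of -1.83 ± 0.64, -0.91 ± 0.62 and -0.59 ± 0.62. None passed, and the adjusted p-values of these 5 genes were 0.411 for WT and at least 0.577 for A31P and 0.906 for R820W (edgeR, Benjamini-Hochberg). Of all genes 0.0233%, 0.0389% and 0.0389% were called in these 3 comparisons, and 0.0156% and 0% for A31P and R820W against WT. With DESeq2 and with the likelihood ratio test LysC passed in WT against attP2 (adjusted p-values 0.0287 and 0.0491, Benjamini-Hochberg, 0.0287 to 1.00 over its alternatives). Without attP2 replicate 2 the Log2FC of LysB was -1.41 in WT, -0.78 in A31P and -0.10 in R820W.

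The sums of protein-digesting enzymes and of amidases were likewise highest in attP2 replicate 2, while that of the 13 carbohydrate-digesting enzymes was highest in R820W replicate 2 (1439 CPM, against 1400.2 CPM in attP2 replicate 2). The 27 protein-digesting enzymes summed to 7071 and 13930 (attP2), 5588 and 4434 (WT), 6766 and 8957 (A31P) and 5340 and 8704 CPM (R820W). The 4 peptidoglycan amidases, enzymes that also break down peptidoglycan, summed to 88.3 and 264.9, 59.8 and 45.0, 81.2 and 71.8, and 33.3 and 76.4 CPM in the same order. Against attP2 the median Log2FC of the 26 protein-digesting enzymes tested was -1.39 in WT, -0.60 in A31P and -0.52 in R820W, and of the amidases -3.59, -2.64 and -1.98, with 0 of either list called. The medians of all genes were -0.04, -0.03 and 0.00. The glue genes, by contrast, had medians of -0.15, -0.03 and 0.15, and LysX, at 75.9 and 97.3, 80.7 and 86.1, 80.7 and 84.1, and 70.1 and 49.5 CPM, had Log2FC values of -0.13 ± 0.18, -0.10 ± 0.18 and -0.43 ± 0.19. The 6 midgut markers summed to 138.9 and 188.2 (attP2), 94.0 and 102.7 (WT), 95.2 and 118.3 (A31P) and 96.0 and 93.9 CPM (R820W). The part that the amount of gut tissue or its contents had in the larval values was not tested.

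**Figure D5:**
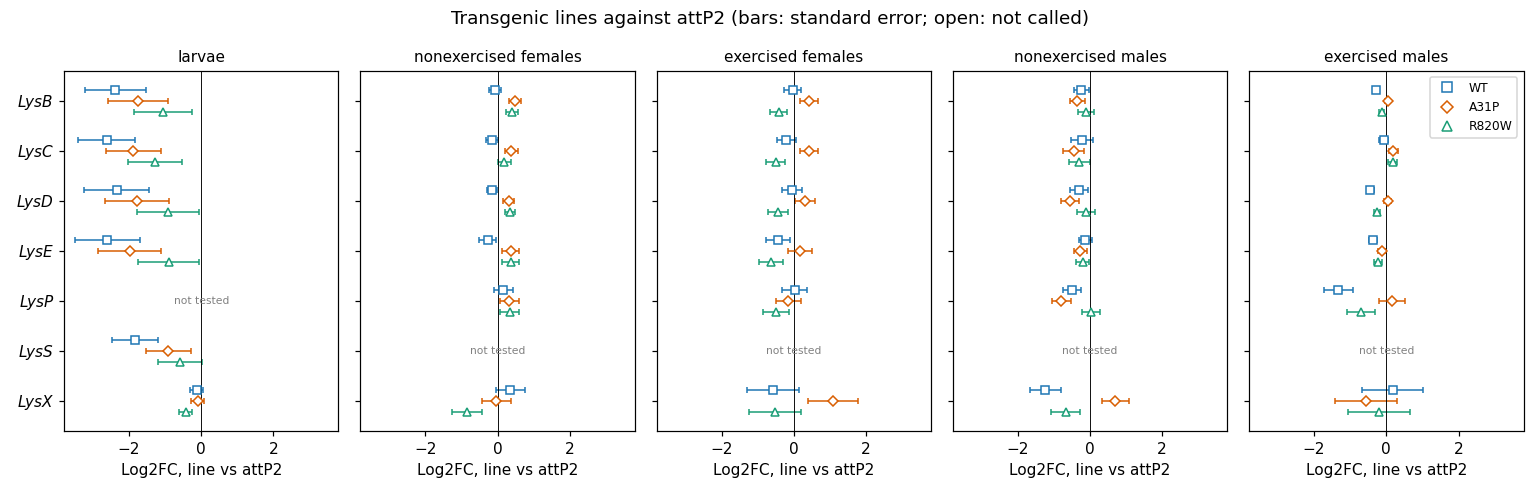
Log2FC of each lysozyme gene in the WT, A31P and R820W lines against attP2, by stage, with standard errors. Open symbols were not called, which holds for all 90 values. In larvae LysB, LysC, LysD and LysE have standard errors of 0.75 to 0.90 and lie left of 0 in every line.

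In nonexercised females no value was called. LysD measured 215 and 258 (attP2), 204 and 209 (WT), 273 and 300.0 (A31P) and 297 and 262 CPM (R820W). Its Log2FC in R820W against WT was 0.49 ± 0.14 (adjusted p-value 0.0898, edgeR, Benjamini-Hochberg), the lowest adjusted p-value of the 60 values against WT. LysE in R820W against WT had a Log2FC of 0.64 ± 0.24 (adjusted p-value 0.121), and with the replicate number as a block it passed (0.0395, edgeR, Benjamini-Hochberg, for both). LysX measured 10.8 and 10.6 CPM in WT and 7.52 and 2.01 CPM in R820W, a Log2FC of -1.19 ± 0.41 that passed with DESeq2 and the likelihood ratio test but not in the quasi-likelihood test. All genes called made up 0.0723%, 0.0994% and 0.127% for WT, A31P and R820W against attP2, and 0.127% and 1.04% for A31P and R820W against WT.

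In exercised females LysD measured 209 and 229 (attP2), 264.5 and 133 (WT), 257 and 315 (A31P) and 127 and 209 CPM (R820W), and the replicates of WT and R820W spanned most of the range. No value reached an adjusted p-value below 0.574 (edgeR, Benjamini-Hochberg). The shares of all genes called were 0.0747%, 0.112% and 0.112% against attP2, and 0% and 0.00934% against WT. The libraries low in LysD were low in the protein-digesting enzymes too: the 27 protein-digesting enzymes summed to 2897 CPM in WT replicate 2 and 2719 CPM in R820W replicate 1, and to 4200.1 to 5373 CPM in the other 6. Both libraries were also the lowest of the exercised females in the midgut markers (103.6 and 95.9 CPM), the yolk genes (7718 and 7110 CPM), the hemocyte markers and the i-type lysozymes. They had the highest shares of ribosomal RNA (19.84% and 19.21%), so the difference was not particular to the protein-digesting enzymes. The carbohydrate-digesting enzymes, at 1260 and 1307 CPM in these libraries, lay within the range of the other 6 (1187 to 1670 CPM). The ovary and eggshell genes, at 3150 and 3331 CPM, did too.

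In nonexercised males, LysB, LysC, LysD and LysE had a Log2FC against attP2 of -0.56 to -0.11 in the 3 lines, none of them called. LysX varied more: it measured 4.28 and 2.54 (attP2), 2.14 and 0.766 (WT), 4.29 and 7.57 (A31P) and 2.14 and 2.41 CPM (R820W). In A31P against WT its Log2FC was 1.94 ± 0.41 (adjusted p-value 0.233, edgeR quasi-likelihood test, Benjamini-Hochberg). It passed with DESeq2 (0.00171), with the likelihood ratio test (0.00191) and in a fit of the A31P and WT libraries alone (0.0304). Called genes made up 0.970%, 1.07% and 0.679% against attP2, and 0.109% and 0.664% against WT.

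In exercised males WT had the lowest mean of the 4 genotypes for LysB, LysC, LysD, LysE and LysP, and the highest for LysX. LysD measured 217 and 197 (attP2), 157 and 151 (WT), 222 and 210.0 (A31P) and 174 and 154 CPM (R820W). Against attP2, WT had a Log2FC of -0.44 ± 0.09 for LysD (adjusted p-value 0.0596) and -0.30 ± 0.07 for LysB (adjusted p-value 0.0684, edgeR, Benjamini-Hochberg for both), the lowest of the 90 values against attP2, and both sizes lie under the threshold. LysP measured 1.30 and 1.19 CPM in attP2 and 0.311 and 0.684 CPM in WT, which is 7 and 15 reads. Its Log2FC of -1.32 ± 0.40 had an adjusted p-value of 0.115, and passed in a fit of the attP2 and WT libraries alone (0.0332) and without the male libraries that held ovary and yolk genes (0.0359, edgeR, Benjamini-Hochberg for all). The shares of all genes called were 1.14%, 0.568% and 0.841% against attP2, and 0.0288% and 0.0647% against WT.

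Whether exercise moved the lysozymes differently in a transgenic line than in attP2 was tested as an interaction within each sex. For the members 0 of 36 values were called by edgeR's quasi-likelihood test, with 2 at an unadjusted p-value under 0.05, a level that 8.54% of all genes' values reached, and 0 by DESeq2. The 2 were LysB (-0.79 ± 0.33) and LysE (-0.96 ± 0.44) in R820W females, with adjusted p-values of 0.181 and 0.186 (edgeR, Benjamini-Hochberg). All genes called made up 0.00888%, 0% and 0.00888% for WT, A31P and R820W in females and 0.192%, 0.0284% and 0.00710% in males.

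Over the 20 group means of log2(CPM + 1), the genes whose pattern was most like that of a member were described by Pearson's r among 12707 genes, which share stage and sex as sources of variation. For LysB these were Jon65Aii (0.90) and Jon25Biii (0.87), serine proteases of the Jonah family known from the gut, and Ndg (0.86), the basement membrane protein nidogen. For LysC they were CG1809, the amidase PGRP-SC1a and the cuticle gene Cpr47Eg (0.84 to 0.80), for LysD CG4053, CG1304 and CG11911 (0.84 to 0.76), and for LysE CG31086, CG14205 and CG13102 (0.83 to 0.80). LysP was most like CR41597, stl and fit (0.95 to 0.92), the last a gene known for its female-biased expression. LysS was most like CG5084, obst-G and CG44956 (1.00 each). LysX was most like EcR (0.97), the ecdysone receptor, br (0.97), a transcription factor that ecdysone induces in late larvae, and CG30031 (0.97). Among the members, LysS and LysX had an r of 0.93, LysB and LysC 0.88, and LysP and LysS -0.70.

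Other lysozyme genes of the fly had patterns of their own. Of the c-type genes outside the cluster, CG8492 was larval (52.9, 77.8 and 119.8 CPM at the lowest, median and highest in larvae, at most 1.64 CPM in adults), as LysS and LysX were, and CG16756 was adult (at most 0.681 CPM in larvae, 5.01 to 23.3 CPM in adults), as LysP was. CG16799 ran from 10.7 to 99.3 CPM. It was lower than attP2 in A31P and R820W exercised males, with Log2FC values of -0.89 ± 0.11 and -0.93 ± 0.11 and adjusted p-values of 0.0227 and 0.0188 (edgeR, Benjamini-Hochberg), from 90.8 and 99.3 CPM in attP2 to 52.5 and 51.8 CPM and 52.7 and 42.2 CPM. The WT line of exercised males was also lower, at a mean of 63.8 CPM against 95.1 CPM in attP2, but was not called. These were the only 2 calls among 123 values of the other c-type and i-type genes against attP2. Replicate 2 of both mutant groups was a library that held ovary and yolk genes. For these other lysozyme genes only the reported fits are given, without alternatives. CG7798, CG11159 and CG30062 did not exceed 1.73 CPM in any library. The 5 i-type genes, CG6421, CG6426, CG6429, CG6435 and CG14823, which code for invertebrate-type lysozymes, were all higher in males in both exercise conditions: CG6426 measured 16.9 to 36.5 CPM in nonexercised females and 41.9 to 66.6 CPM in nonexercised males, a Log2FC of 1.09 ± 0.07. Among all genes, 6550 of 14095 were higher in nonexercised and 7369 of 14210 in exercised males. In R820W against WT nonexercised females CG6426 was higher by a Log2FC of 0.77 ± 0.14 (adjusted p-value 0.0452, edgeR, Benjamini-Hochberg). It was the only call, 1 of 82 values of the other c-type and i-type genes against WT.

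The digestive and immune genes around the lysozymes were counted in the same fits. Of 27 protein-digesting enzymes, 17 were higher and 6 lower in larvae than in nonexercised females, and 17 were lower and 1 higher in nonexercised males than in nonexercised females (median Log2FC -0.65 against 0.33 for all genes), the direction of LysB and LysD. Among all genes, 40.0% were higher and 34.0% lower in larvae, and 33.6% were lower in nonexercised males. Of 13 carbohydrate-digesting enzymes, 11 were higher and 1 lower in nonexercised males, where 6550 of 14095 genes were higher. With exercise, 13 protein-digesting enzymes were lower and 1 higher in females, and 5 higher and 2 lower in males, while 8 carbohydrate-digesting enzymes were higher and 0 lower in females. Among all genes, 1824 of 11263 were higher and 2876 lower in females, and 812 of 14090 were higher and 780 lower in males. Of 14 antimicrobial peptide genes, 14 were higher in exercised than in nonexercised males (median Log2FC 4.15 against 0.01 for all genes) and 7 of 11 tested were higher and 1 lower in females. Their sum in attP2 nonexercised males replicate 1, 1005 CPM, lay within the range of the exercised males (622 to 2794 CPM), and the other 7 nonexercised male libraries had 47.3 to 93.3 CPM. Of the lysozymes, 0 of 6 tested were called higher in either sex (0 by DESeq2), where 812 of 14090 genes were higher in males and 1824 of 11263 in females. LysB in males and LysE in both sexes lay under the threshold of size only. With RLE factors their adjusted p-values were 0.00158 for LysB in males, and 0.0126 for LysE in males and 0.0126 in females (edgeR, Benjamini-Hochberg). The 6 midgut markers summed to 93.9 to 188 CPM in larvae and 95.9 to 270.3 CPM in adults, 3 of them were lower in females and 2 higher in males with exercise, and 1 of them was higher and 0 lower in nonexercised males than females. The 4 peptidoglycan amidases had 2 lower members in exercised females and 2 higher in exercised males. Of the 5 hemocyte markers, 5 were higher in males in both exercise conditions, where 6550 of 14095 genes were higher in nonexercised and 7369 of 14210 in exercised males. The 6 larval fat body genes summed to at least 46535 CPM in larvae and at most 469 CPM in adults.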

How the data were processed

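RNA of pools of 10 whole animals was sequenced for 40 libraries. Demultiplexing was by bcl2fastq, quality control by FastQC and trimming of single reads by Cutadapt. The authors then filtered out ribosomal RNA with TopHat, and CLC Genomics Workbench 11 gave whole-number counts of reads per gene of release 6.13. Those deposited counts were used without normalization, and 120 normalized columns were not used. Ribosomal RNA genes still held 4.64% to 27.4% and 7SL genes 2.09% to 18.24% of a library's counts.

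Libraries were grouped by their labels. Within each stage the 4 genotypes, and for stage, sex and exercise the 16 libraries compared (for the interaction of sex and exercise the 32 adult libraries), were fitted on all genes in edgeR 4.0.16 (R 4.3.3) with TMM factors, filterByExpr (minimum count 10, minimum total 15), the two-sided quasi-likelihood F test and Benjamini-Hochberg adjustment over all genes tested. Calls needed an adjusted p-value below 0.05 and a Log2FC beyond 0.5 in size. The summed counts of LysB to LysE, and of all 7 genes, were refitted in place of their members. With 2 pools a group, p-values measure the spread between pools. Alternatives were DESeq2 1.42.0, RLE factors, no filter, the replicate block, library sizes without ribosomal and 7SL RNA, the likelihood ratio test, the 2 compared groups alone, and leaving out single libraries, genotypes or the libraries that stood apart, part of the last 3 added after seeing the data. The fits were tested on simulated data. Replicates shared at most 4.17% of gene values.

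Named genes were all 7 members, the other c-type and i-type lysozyme genes, and for each member the 3 genes with the highest Pearson's r over the 20 group means of log2(CPM + 1), among genes with a mean of at least 1 CPM. Lists of digestive enzymes, amidases, antimicrobial peptides and cell type markers were described by counts and medians. LysA and dec-1 were not analysed here. The members and lists were chosen with earlier results of these data known. Gene positions follow the deposited table, and 98.3% of its 17216 genes with an entry in the Ensembl annotation of BDGP6.54 had the same coordinates there. Intervals and the floor cover counting error only. Python 3.11.15 with pandas 2.3.3, numpy 2.4.6, scipy 1.17.1 and matplotlib 3.10.9 made the tables and figures.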

Additional observations from a re-analysis of the deposited data

Results flagged for a closer look

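The change of LysP with exercise differed between the sexes by a test of the difference itself. It was larger in males by 1.44 on the log2 scale, an interaction of -1.44 ± 0.24 with an adjusted p-value of 8.62e-05 (edgeR quasi-likelihood test, Benjamini-Hochberg, 4.07e-08 to 0.000209 over its 7 alternatives, in which the value lay between -1.48 and -1.36). All 8 exercised libraries lay below all 8 nonexercised ones in either sex. The exercised males had 7 to 38 reads of LysP per library, and the flow cell and lanes of the exercised flies cannot be told apart from exercise and sex.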

How the results depend on the processing

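Over 52 alternative settings, 4533 values of the members and their sums were recomputed from 306 reported ones: 18 called values were no longer called, 35 became called and 0 called values changed sign, while 161 values that were called in neither fit did. For each change the cause was not tested. Against attP2, where no member was called, DESeq2 called 1 value, the likelihood ratio test 1, the fit of the 2 compared groups alone 1 and the fit without the libraries that stood apart 1, and leaving out single libraries 0 to 3, the most without R820W nonexercised females replicate 1 (LysB, LysP and LysX in that line), and 1 each without attP2 (LysP in A31P) or R820W (LysC in R820W) nonexercised males replicate 2. Against WT, DESeq2 called 2, the likelihood ratio test 2, the fit of the 2 compared groups 1, and leaving out single libraries 0 to 4, again without R820W nonexercised females replicate 1 (LysB, LysD, LysE and LysX), with 1 without A31P exercised males replicate 1 (LysP), while the summed count of LysB, LysC, LysD and LysE went from 0 to 1 call without that same female library. Between exercised males and females, DESeq2 and RLE factors each left 1 of 3 members called. With exercise in females, leaving out the WT genotype left 1 of 2 called. With exercise in males, the fit without a filter on low counts called 2 members, and leaving out single libraries 1 to 2, the second LysB without R820W nonexercised males replicate 2. With exercise in females, LysE crossed the threshold of size in 10 of 25 alternatives, with Log2FC values of 0.35 to 0.73. With the replicate number as a block, 1 value against WT was called (LysE in R820W nonexercised females, 0.64), and no other call changed. The number stands for the lane in larvae and nonexercised flies. Deviations of same-numbered libraries correlated over 6 pairs of genotypes a stage, at -0.32 to 0.56 (larvae), 0.09 to 0.50 (nonexercised females), -0.58 to 0.36 (exercised females), -0.08 to 0.11 (nonexercised males) and -0.13 to 0.63 (exercised males), so the numbers were not taken to pair the libraries. Depth limits LysS in adults and LysP in larvae and exercised males, where single libraries held 0 to 38 reads, and 2 pools a group limit every comparison between genotypes, most in larvae, where the biological coefficient of variation over all genes was 0.260.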
